A study of Mus musculus with 12 samples.

Results

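The genes described here encode the proteins of the cytoplasmic ribosome in mouse embryonic stem cells. They were taken by symbol from the gene tables of the series: Rpl or Rps followed by digits and at most 1 of the endings a, x or l, with Rplp0, Rplp1, Rplp2 and Rpsa, and without ribosomal protein S6 kinases. Many of these genes have near-identical copies in the genome, and the tables join the symbols of such copies in 1 field, so a row was counted where any of its joined symbols met the rule. This gave 93 rows of 19996. Of these, 79 carry the identifier of the ribosomal protein gene itself, and they are the subject below: 42 genes of the large (60S) subunit, 30 of the small (40S) subunit, 3 of the stalk and 4 paralogs, Rpl3l, Rpl10l, Rpl39l and Rps27l. The other 14 rows belong to copies and are described apart. Rpl13 was not analysed here.

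Most ribosomal proteins are made in equal number, and their assembly with ribosomal RNA takes place largely in the nucleolus. Ribosomal protein messenger RNAs are among the most abundant of a dividing cell. Most of these messengers begin with a C followed by a run of pyrimidines, the 5′ terminal oligopyrimidine (TOP) motif, through which mTORC1 and the RNA-binding protein Larp1 control their translation and stability together. In mouse embryonic stem cells, the medium with inhibitors of MEK and GSK3 holds cells in a naive state, while serum medium gives a mixture of states.

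Polyadenylated RNA was sequenced in 12 libraries, 2 in each of 6 groups. In the 2i medium, Foxd3fl/fl;Cre-ER cells had been given 4-hydroxytamoxifen (2 µM, 3 days; 2i Foxd3-/-) or left untreated (2i Foxd3fl/fl); the medium was serum-free, with leukemia inhibitory factor (LIF), PD0325901 at 0.4 µM and CHIR99021 at 3 µM. The same line, with the same treatment or none, was grown on irradiated fibroblast feeders with 15% serum and LIF (SL Foxd3-/- and SL Foxd3fl/fl). Cells in which doxycycline switches on added Foxd3 (tetON Foxd3) were set against wild-type LF2 cells (WT); these groups grew in serum and LIF without feeders, and both received doxycycline (1 µg/µl, 3 days per the series' design). No tetON Foxd3 group went without doxycycline, so induction cannot be told apart from other differences between tetON Foxd3 and WT cells. Foxd3, a forkhead transcription factor, is the gene that the study removed or overexpressed. All 4 Foxd3fl/fl;Cre-ER groups carry the floxed allele and the recombinase, no group received tamoxifen without the floxed allele, and it is not stated whether the replicates of a group were separate cultures, so that p-values measure the spread between these libraries, which may be technical.

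Foxd3 itself was at 1.94 and 2.25 scaled FPKM (fragments per kilobase of transcript, corrected for library size, with the 4 libraries of a table set to a common scale) in the libraries labelled 2i Foxd3-/-, against 2.68 and 2.61 in 2i Foxd3fl/fl (log2 difference -0.23 ± 0.10 SE, limma adjusted p = 0.0727). The authors' deposited table listed it the other way, with 376.17 mean reads against 221.19. The label of deletion in 2i was therefore not borne out by Foxd3 RNA, and these libraries are called labelled 2i Foxd3-/- throughout. In SL it was at 1.62 and 1.82 scaled FPKM in Foxd3-/-, against 4.55 and 4.81 in Foxd3fl/fl (-1.06 ± 0.15 SE, adjusted p = 0.124). It was at 52.1 and 50.005 in tetON Foxd3, against 10.6 and 14.3 in WT (1.96 ± 0.15 SE, adjusted p = 0.0145). The part of Foxd3 that is floxed is not given, so reads from the rest of the gene may remain after deletion.

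The first bases of the messengers were searched for the pyrimidine run. RefSeq (GRCm38.p6) gave start regions for 59 of the 79 genes, as 71 starts. Windows of 30 bases, the 10 before the start and the 20 that follow from it, are shown for genes on which the results below turn; capitals mark a run of at least 5 C or T that begins with a C within 5 bases of the start.
Rpl27a, chr7:109519185-109519214, plus strand: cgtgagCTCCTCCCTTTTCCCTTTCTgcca
Rpl28, chr7:4792955-4792984, plus strand: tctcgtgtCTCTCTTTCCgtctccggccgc
Rpl7a, chr2:26910797-26910826, plus strand: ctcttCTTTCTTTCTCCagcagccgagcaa
Rps27, chr3:90213629-90213658, minus strand: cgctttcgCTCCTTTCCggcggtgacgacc
Rpl35, chr2:39005112-39005141, minus strand: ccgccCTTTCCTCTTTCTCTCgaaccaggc
Rps6, chr4:86857348-86857377, minus strand: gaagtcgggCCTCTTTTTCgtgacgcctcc
Rplp2, chr7:141447641-141447670, plus strand: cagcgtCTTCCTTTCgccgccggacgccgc
Rps25, chr9:44407704-44407733, plus strand: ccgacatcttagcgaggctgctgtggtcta
Rpl10l, chr12:66284382-66284411, minus strand: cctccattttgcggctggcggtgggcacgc
Rpl39l, chr16:10170218-10170247, plus strand: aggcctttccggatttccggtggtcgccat
The run was present at 30 of the 71 starts (42.3%), in 28 of the 59 genes, against 6027 of 32851 starts of all genes (18.3%). Rps25 and the paralogs Rpl10l and Rpl39l had none at these starts. On either strand of the 300 bases from 250 before the start to 50 after, the letters CCGGAAG, the core bound by ETS family factors, occurred in 36.6% of the genes' regions and in 8.86% of all regions. AAGATGGC, the letters bound by YY1, occurred in 9.86% against 2.75%, and TATAAA (the TATA box) in 8.45% against 13.6%. None of these motifs contains another. These are matches of letters only.

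Further features were shared. In GENCODE M21, 28 of the 79 genes (35.4%) held at least 1 small nucleolar RNA gene on their own strand, against 241 of 19365 protein-coding genes of the tables (1.24%). Rpl4 held 5, and Rpl13a held 4. Coding sequences were short, with a median of 453 bases over the 75 genes that are no paralogs; the shortest was that of Rpl41, with 25 residues, and the longest that of Rpl4, with 419 residues. The genes lay on every autosome except chromosome 19, with 14 on chromosome 7, and 4 lay on the X chromosome: Rpl10, Rpl36a, Rpl39 and Rps4x.

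The ribosomal protein genes held a large part of each library. Their share of the summed FPKM was 14.04% and 13.3% in the libraries labelled 2i Foxd3-/-, against 17.2% and 16.8% in 2i Foxd3fl/fl. It was 14.1% and 13.9% in SL Foxd3-/-, against 14.5% and 13.9% in SL Foxd3fl/fl. In tetON Foxd3 it was 13.7% and 13.4%, against 13.2% and 13.6% in WT. Both 2i Foxd3fl/fl libraries thus stood above the other 10, which overlapped. The share does not depend on scaling between libraries, and it is a share of length-corrected abundance: of the authors' mean reads, which are not corrected for length, the same genes held 3.93% in the group labelled 2i Foxd3-/- and 5.45% in 2i Foxd3fl/fl.

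**Figure D1:**
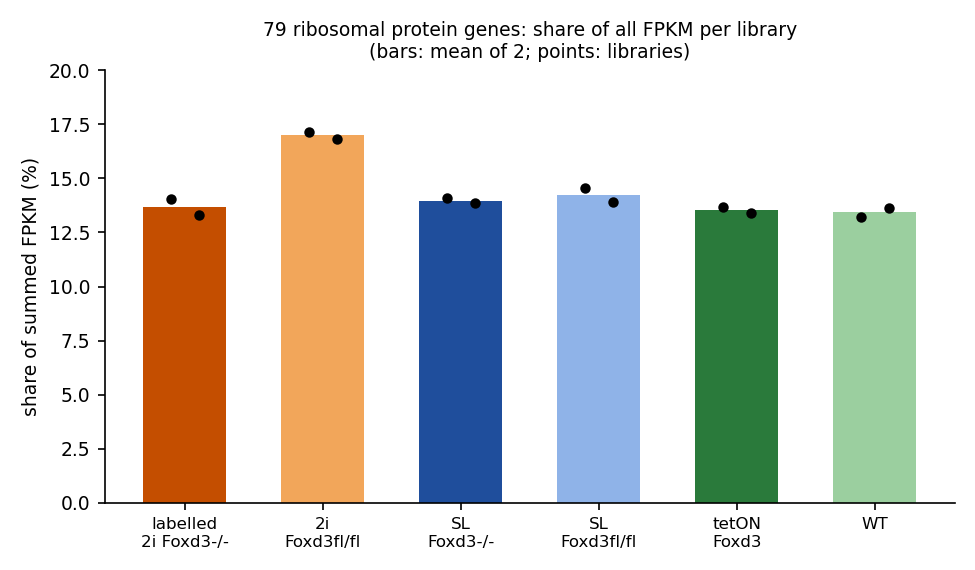
Share of each library's summed FPKM held by the 79 ribosomal protein genes (percent, vertical axis), by group; bars are means of 2 libraries and points the libraries. Both 2i Foxd3fl/fl libraries lie at 16.8% or above, and the other 10 lie at or below 14.5%.

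Across the 12 libraries, set to one scale, 76 of the 79 genes averaged at least 100 scaled FPKM and 27 at least 1000, and 59 of them were among the 100 highest rows of all. The 75 genes that are no paralogs ran from 241 (Rpl29) to 1642 (Rps12), with a median of 893. The 10 highest means belonged to Rps12, the stalk gene Rplp1, Rpl19, Rpl23a, Rpl26, Rpl13a, Rpl41, Rps24, Rpl32 and Rpl4; the lowest of these, Rpl4, averaged 1269. The order of the 75 genes was nearly the same in the groups of a table, with a Spearman correlation of group means of 0.988 between labelled 2i Foxd3-/- and 2i Foxd3fl/fl, 0.996 between SL Foxd3-/- and SL Foxd3fl/fl and 0.989 between tetON Foxd3 and WT. These correlations are descriptions over genes that share libraries. FPKM of short transcripts and of genes with near-identical copies depend on how reads were assigned: Rpl24 had 891 FPKM in SL Foxd3fl/fl with 212.95 mean reads in the authors' deposited table, where the gene rows had a median of 30.9 mean reads per FPKM.

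In 2i, ribosomal protein messengers were lower in the libraries labelled Foxd3-/- than in Foxd3fl/fl, as a nearly uniform group. Of the 79 genes, 78 fell and 0 rose, where 32.4% of the 11600 genes tested were called lower and 32% higher (limma, Benjamini and Hochberg adjusted p below 0.05). All 42 genes of the 60S subunit, all 30 of the 40S subunit and all 3 of the stalk fell. The median log2 difference of the 79 genes was -0.57, against 0.002 over all genes tested, and 71 of them were called lower by at least 0.5 log2, which held for 13.1% of all genes. Both libraries labelled 2i Foxd3-/- lay below both 2i Foxd3fl/fl libraries for 78 of the 79 genes, against 41.7% of all genes. Over the 75 genes that are no paralogs the differences had an SD of 0.07, against 0.53 over all genes, and 73 lay between -0.7 and -0.45; the median SE of a gene was 0.0574. Less of these messengers in each cell and a different mixture of cells cannot be told apart in bulk libraries, and FPKM gives no amount per cell.

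The stalk proteins recruit the translation factors to the ribosome. Rplp0, which anchors the stalk, was at 824 and 769 scaled FPKM in the libraries labelled 2i Foxd3-/-, against 1247 and 1232 in 2i Foxd3fl/fl. That is a log2 difference of -0.64 ± 0.06 SE (adjusted p = 1.05e-04, limma). Its partners Rplp1 and Rplp2 differed by -0.59 and -0.53. The groups did not overlap for any of the 3.

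Of the 60S genes, Rpl27a changed most. It was at 426 and 412 scaled FPKM in the libraries labelled 2i Foxd3-/-, against 768 and 825 in 2i Foxd3fl/fl (-0.92 ± 0.06 SE, adjusted p = 2.73e-05, limma). Rpl28 followed, with 844 and 792 against 1332 and 1342 (-0.71), and Rpl7a, with 828 and 766 against 1315 and 1256 (-0.69). Each of these genes was lower in both labelled libraries than in either of the others. Rpl11, which with Rpl5 and 5S RNA binds Mdm2 and so links ribosome assembly to p53, was at 602 and 575 against 948 and 931 (-0.67). Rpl5 itself was at 661 and 618 against 907 and 898 (-0.50). Rpl3, at the peptidyl transferase centre, was at 827 and 769 against 1290 and 1251 (-0.67). Rpl10, which joins the 60S subunit late in its maturation, differed by -0.56, Rpl22 by -0.62, Rpl38 by -0.57, Rpl39 by -0.52, Rpl41 by -0.57 and Rpl13a by -0.51; all passed the test. The smallest fall of the 75 genes was -0.46.

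In the 40S subunit, Rps25 was at 493 and 469 scaled FPKM in the libraries labelled 2i Foxd3-/-, against 778 and 773 in 2i Foxd3fl/fl (-0.69 ± 0.05 SE, adjusted p = 5.49e-05, limma). Rps27 was at 688 and 667 against 1060 and 1114 (-0.68). Rps6, the substrate of the S6 kinases, was at 848 and 786 against 1251 and 1161 (-0.56). Rps19 and Rps14, whose loss causes anaemia in humans, were lower by similar amounts, at -0.55 and -0.57. Rps26 differed by -0.64, Rpsa by -0.60, Rps3 by -0.56 and Rps27a, made as a fusion with ubiquitin, by -0.53. Taking the sum of 60S and stalk genes over that of 40S genes, the ratio of summed FPKM was 1.40 and 1.41 in the libraries labelled 2i Foxd3-/- and 1.43 and 1.41 in 2i Foxd3fl/fl.

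**Figure D2:**
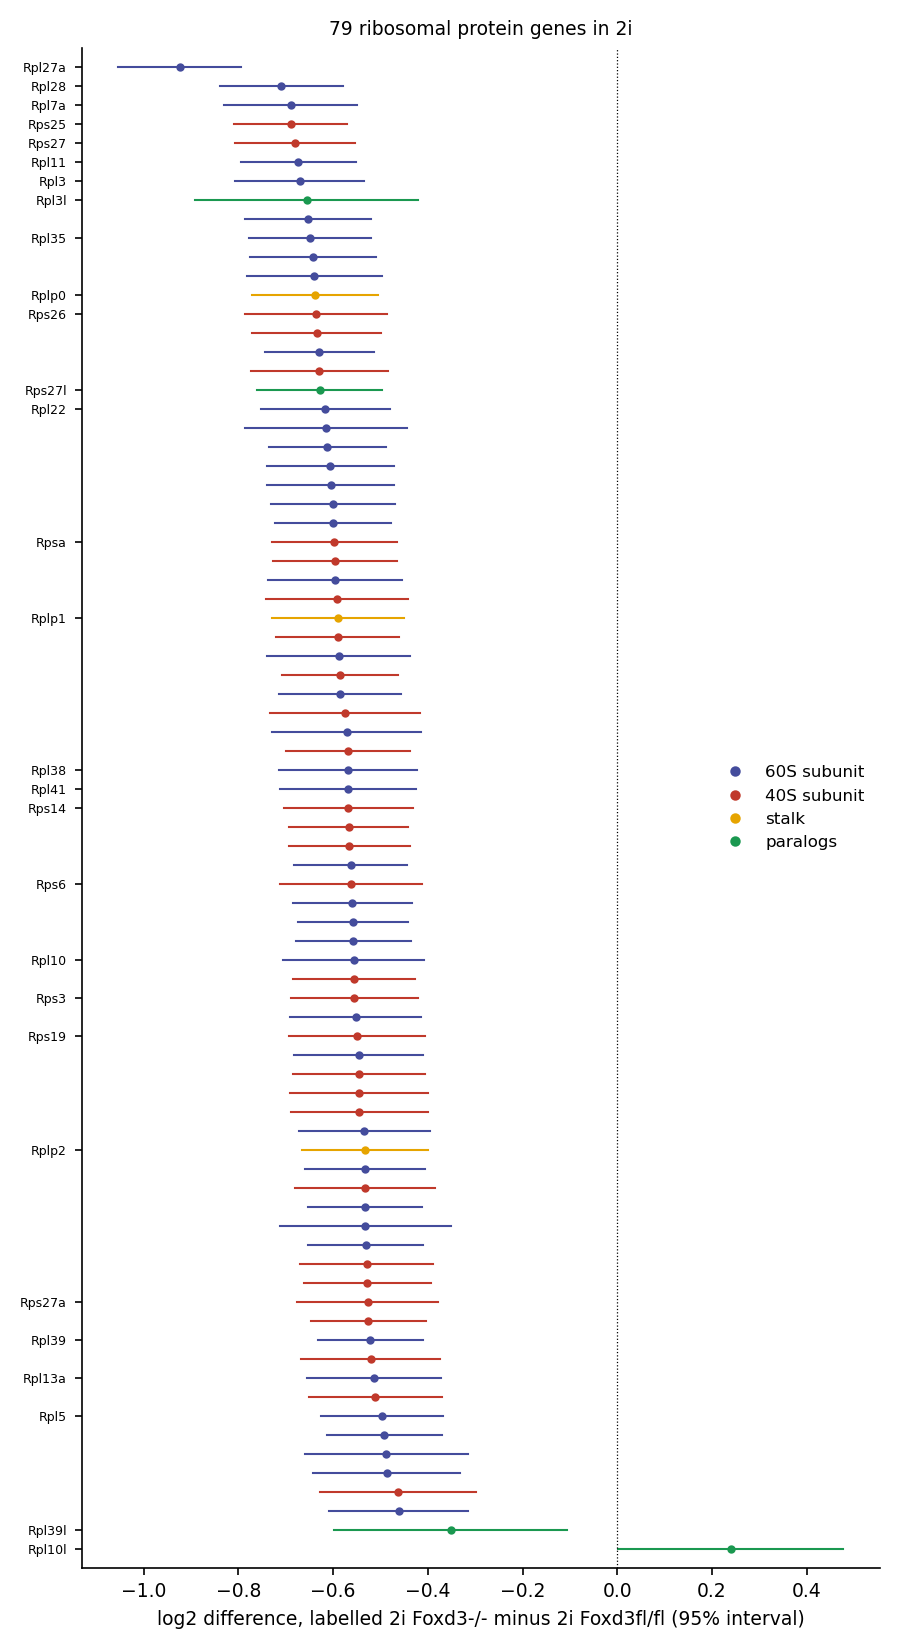
Log2 difference between the libraries labelled 2i Foxd3-/- and 2i Foxd3fl/fl (horizontal axis, log2(scaled FPKM + 1), with its 95% interval) for each of the 79 ribosomal protein genes, ordered from the largest fall at the top and coloured by subunit, with labels for a number of the genes named in the text. Rpl27a stands apart at -0.92, most genes lie between -0.7 and -0.45, and Rpl10l at 0.24 is the exception.

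The paralogs replace or accompany a parent gene in some tissues. Rps27l, a p53-inducible paralog of Rps27, fell with its parent, at 312 and 297 scaled FPKM in the libraries labelled 2i Foxd3-/- against 454 and 488 in 2i Foxd3fl/fl (-0.63). Rpl3l, the heart and skeletal muscle form of Rpl3, was near the limit of detection, at 0.697 and 0.821 against 1.68 and 1.86 (-0.66, adjusted p = 0.00104, limma). Rpl39l, the male germ cell form of Rpl39, was at 12.01 and 15.02 against 16.9 and 17.99 (-0.35, adjusted p = 0.0203). It was at -0.16 with an adjusted p of 0.216 with FPKM as deposited. Rpl10l, the autosomal form of Rpl10 used in male meiosis, was at 10.003 and 10.9 against 7.93 and 9.50 (0.24, adjusted p = 0.0711). It is the only one of the 79 genes with a positive difference, and with FPKM as deposited the difference was 0.42 with an adjusted p of 0.00609.

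The median of the ribosomal protein genes by itself depended on how the libraries were set to a common scale. Its distance from the median of all genes moved little, at -0.57 on the common scale, -0.55 with FPKM as deposited and -0.54 with equal summed FPKM. With FPKM as deposited, the median of all genes was 0.19 instead of 0.002 and that of the ribosomal protein genes -0.36. All genes then split into 5573 called higher and 2291 lower, against 3713 and 3762 on the common scale, while 77 of the 79 ribosomal protein genes were called lower and 1 higher. In the authors' deposited table, with its p-values adjusted here over 19718 rows, 77 of the 79 were called lower and 0 higher, where 20.2% of rows were called lower. The authors' mean reads had a median log2 ratio of -0.62 over these genes. Across the 75 genes that are no paralogs, the log2 difference here and that log2 read ratio had a Pearson correlation of 0.80, both from the same libraries.

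**Figure D3:**
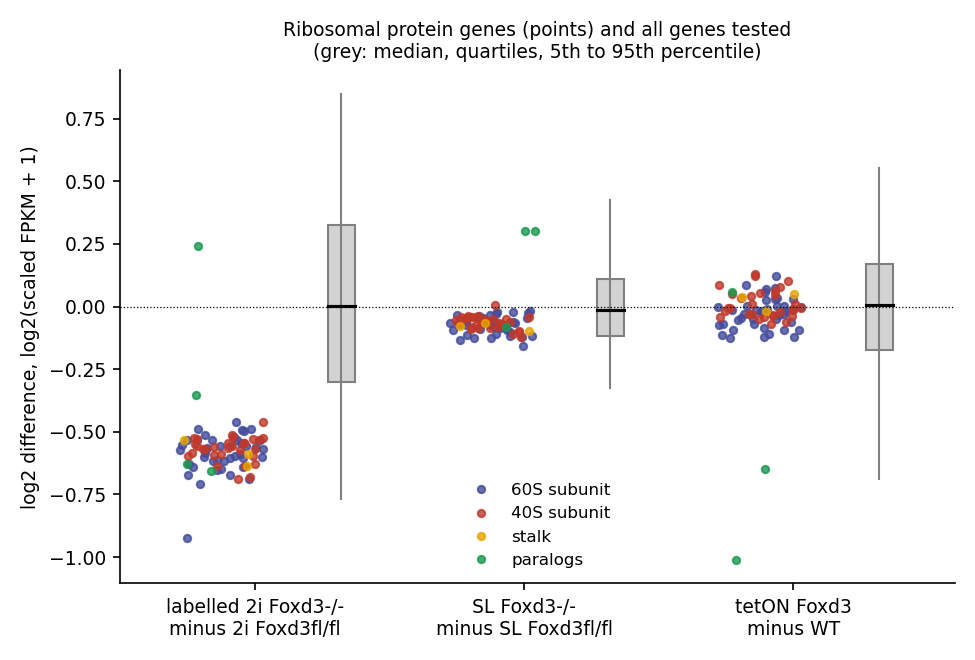
Log2 difference of each ribosomal protein gene (points, coloured by subunit; vertical axis, log2(scaled FPKM + 1)) in the 3 comparisons, beside all genes tested (grey, with median, quartiles and 5th to 95th percentile). In 2i the points gather near the median of -0.57, and in the other comparisons near 0, with Rpl10l at -1.01 in tetON Foxd3 minus WT.

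Genes that act with the ribosome were read from lists, whose counts in 2i stand beside 32.4% lower and 32% higher over all genes tested. Of 21 translation factors and other TOP messengers, all 21 fell in 2i, with a median of -0.59. Eif4b, a helper of the initiation helicase, was at 131 and 131 scaled FPKM in the libraries labelled 2i Foxd3-/- against 252 and 242 in 2i Foxd3fl/fl (-0.92), and Pabpc1, the poly(A)-binding protein, was at 514 and 480 against 876 and 823 (-0.77). Of 7 ribosomal proteins and relatives that carry other symbols, 6 fell and 1 rose, where 1 of the 6 is Rpl36al, also counted below as a copy. Rpl22l1, the paralog of Rpl22, differed by -0.87, Rps3a1 by -0.63, Fau by -0.55 and Rack1 by -0.51, while Rpl7l1 rose by 0.19 (adjusted p = 0.0132, limma). Among 40 genes of ribosome biogenesis, 28 fell and 1 rose (median -0.32), with Nop10 at -0.93 and Nhp2 at -0.76, both parts of the particle that converts uridine to pseudouridine, and nucleolin (Ncl) at -0.59. With FPKM as deposited these counts were 17 and 7, where 2291 of all genes were called lower and 5573 higher.

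Mitochondrial ribosomal proteins moved less uniformly. Of 77, 48 fell and 4 rose in 2i, where 32.4% of all genes were called lower and 32% higher. The median of the 77 was -0.27, with Mrpl18 at -0.69 and Mrpl30 at -0.69. With FPKM as deposited, 23 fell and 17 rose, where 2291 of all genes were called lower and 5573 higher. The next 3 lists are small, and their counts stand beside 32.4% lower and 32% higher over all genes. Of 18 genes of mTORC1 and TOP control, 6 fell and 4 rose, shares near or below those of all genes; the S6 kinase gene Rps6kb1 was at -0.59, Rheb, which activates mTORC1, at -0.42, and the kinase gene Akt1 at 0.59. In a list of the Myc genes and related factors, which need not act in the same direction, 2 of 8 fell and 4 rose. Mycl was at 0.67, Mycn at 0.61 and Mlx at -0.41. Of 9 genes of ribosome stress and p53, 5 fell and 2 rose, with the p53 targets Bbc3 at -0.67 and Cdkn1a at -0.49 and the stress gene Sesn2 at 0.70. With FPKM as deposited the medians of these last 3 lists were 0.09, 0.42 and 0.009, each beside an all-gene median of 0.19.

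Markers of cell identity were read beside the same shares of all genes, 32% higher and 32.4% lower. Of 10 markers of mouse embryonic stem cells, 5 rose and 1 fell: Nanog was at 257 and 264 scaled FPKM in the libraries labelled 2i Foxd3-/- against 155 and 154 in 2i Foxd3fl/fl (0.75), Klf4 differed by 1.13 and Pou5f1 by -0.29. Of 22 fibroblast markers, 7 passed the filter, of which 4 rose and 2 fell. The whole list summed to 422 and 416 scaled FPKM in the libraries labelled 2i Foxd3-/- against 563 and 554 in 2i Foxd3fl/fl, with Vim called lower (-1.14). The 19 markers of the tables other than Fn1 and Vim went the other way and summed to 21.8 and 21.8 scaled FPKM against 13.9 and 14.9, and Lum was listed at 0 in all 4 libraries. The part of these differences in the fall of the ribosomal protein genes was not tested.

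Within the set, the median fall in 2i was nearly the same with and without the features described above. Genes with the pyrimidine run had a median of -0.57 (n = 27) and those without it also -0.57 (n = 28). Genes that hold a small nucleolar RNA gene had a median of -0.56 (n = 28) and the others -0.57 (n = 47). Across the 75 genes, the 2i difference had a Spearman correlation of 0.04 with coding length and of 0.18 with level. The 4 X-linked genes had a median of -0.55 and the 71 autosomal ones -0.57.

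In SL, the same treatment of the same line gave no call among these genes. Of 78 tested, 0 rose and 0 fell in Foxd3-/- cells relative to Foxd3fl/fl cells, and 0 passed an unadjusted p of 0.05; of all 12024 genes, 0.00832% were called higher and 0% lower. In the authors' deposited table, adjusted here, 0 of the 79 were called, where 0.44% of rows were called higher and 0.095% lower. The median log2 difference was -0.07, against -0.01 over all genes, with 75 of 78 genes below 0. Both Foxd3-/- libraries lay below both Foxd3fl/fl libraries for 10 of 78 genes, where this held for 18.3% of all genes. Over the 75 genes that are no paralogs, differences ran from -0.16 (Rpl27) to 0.01, with a median SE of 0.0955, and their 95% intervals together ran from -0.41 to 0.29.

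The 5 genes with the largest differences in SL are given by their values, since none passed the test. Rpl27 was at 866 and 798 scaled FPKM in SL Foxd3-/- against 961 and 895 in SL Foxd3fl/fl. Rpl41 was at 1449 and 1284 against 1628 and 1378, and Rpl11 at 785 and 766 against 899 and 796. The groups did not overlap for Rpl27 and Rpl11 and overlapped for Rpl41. Rpl10l was at 12.8 and 8.99 against 10.5 and 6.88, and Rpl39l at 10.1 and 7.62 against 8.38 and 5.75, both with a log2 difference of 0.30 and overlapping groups. Fibroblast markers were higher in SL Foxd3-/-: all 18 tested had positive differences (median 0.53), with 0 called, and their list summed to 932 and 811 scaled FPKM against 618 and 639, and without Fn1 and Vim to 445 and 399 against 249.5 and 293. The part of feeder RNA in these values was not tested.

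In tetON Foxd3 the set likewise lay near its level in WT, and induction cannot be told apart here from other differences between the cells. Of 78 genes tested, 0 rose and 1 fell in tetON Foxd3 relative to WT, where 0.843% of the 11978 genes tested were called higher and 1.66% lower. The median log2 difference was -0.02, against 0.005 over all genes, and 28 of the 75 genes that are no paralogs had positive differences, up to 0.13 (Rps27). Both tetON Foxd3 libraries lay above both WT libraries for 10 of the 78 genes, where this held for 26% of all genes, and below them for 17, where this also held for 26%. The direction of the median turned with FPKM as deposited, to 0.01. Of 7 fibroblast markers tested, 4 differences were positive and 3 negative, and 1, Vim, was called higher (0.90). Of 10 markers of embryonic stem cells, 5 differences were positive and 5 negative, and 2 were called lower, Nanog (-0.51) and Dppa5a (-1.40).

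The gene that fell was Rpl10l. It was at 50.002 and 50.6 scaled FPKM in tetON Foxd3, against 101 and 104 in WT, with no overlap and a log2 difference of -1.01 ± 0.08 SE (adjusted p = 0.0146, limma). In the authors' deposited table it had 2868.21 mean reads against 5835.99, and it was 1 of the 79 called lower there after adjustment here, where 2.59% of rows were called lower. Its adjusted p was 0.0535 without WT replicate 1 and 0.0540 with no filter on low values. Rpl39l was at 29.2 and 19.5 against 47.5 and 30.3 (-0.65, adjusted p = 0.261), without overlap. The parents of these paralogs were at nearly the same level in both groups: Rpl10 was at 1526 and 1558 against 1532 and 1667, and Rpl39 at 636 and 606 against 591 and 622. Rps27 and Rps9, among the largest positive differences, were at 895 and 901 against 781 and 865, and at 948 and 950 against 844 and 901.

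**Figure D4:**
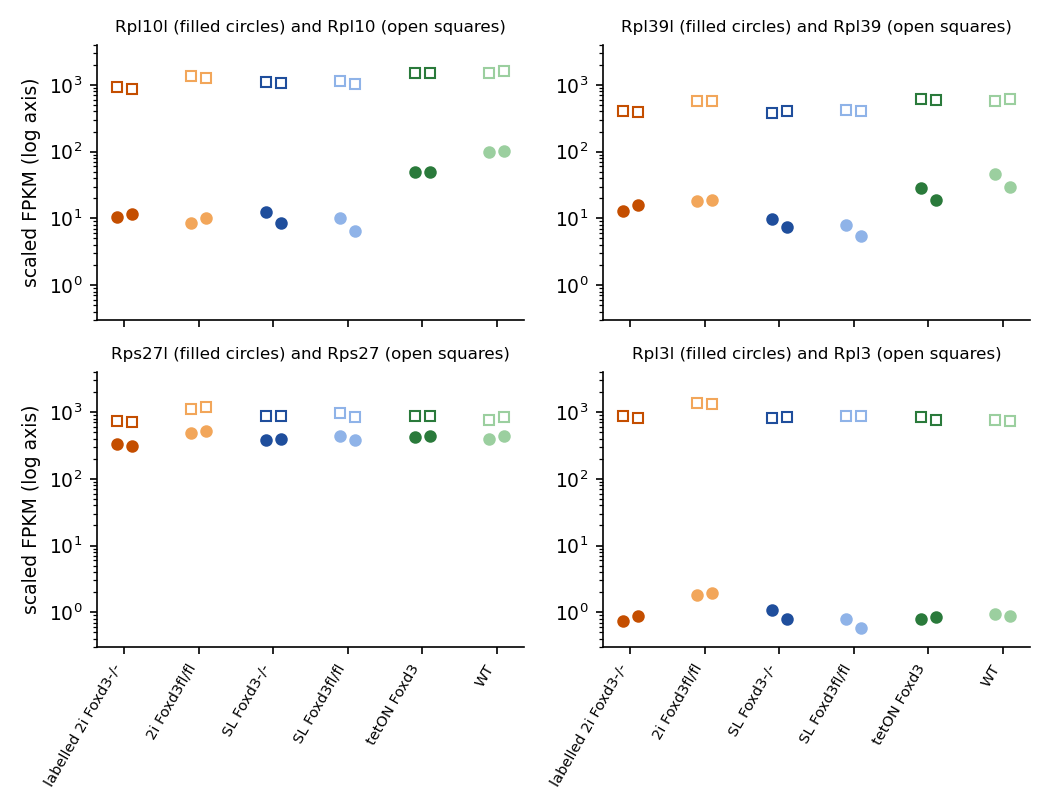
Scaled FPKM on a common scale of 12 libraries (vertical axis, log scale) of the 4 paralogs (filled circles) and their parent genes (open squares), by group, with each library a point. Rpl10l lies near 100 in WT, near 50 in tetON Foxd3 and at 12.3 or below in the 8 libraries of the Foxd3fl/fl;Cre-ER line, while Rps27l follows Rps27.

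The deletion effects of the 2 media were compared in a joint fit of 8 libraries. The effect in 2i, of the libraries labelled Foxd3-/-, was lower than the effect in SL for 74 of the 79 genes and higher for 0, where 11.6% of 12461 genes were called lower and 9.83% higher. The median difference of the effects was -0.52, against -0.002 over all genes, and it was negative for all 79. The 5 genes without a call were Rpl10l, Rpl39l, Rpl41, Rps15 and Rps24. Serum, inhibitors and feeders cannot be told apart in this difference. The count depended on which library was left out: it was 28 without SL Foxd3-/- replicate 1, 61 to 78 without any 1 of the other SL libraries, 18 and 0 without the libraries labelled 2i Foxd3-/- replicate 1 and replicate 2, and 20 and 9 without 2i Foxd3fl/fl replicate 1 and replicate 2. With all 8 libraries and FPKM as deposited it was 24. The median stayed between -0.60 and -0.44 when any of the 8 libraries was left out.

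Rpl27a differed most between the media, with a 2i effect lower than its SL effect by 0.91 on the log2 scale, that is -0.91 ± 0.16 SE (adjusted p = 0.00926, limma). In SL it was at 618 and 564 scaled FPKM in Foxd3-/- against 675 and 532 in Foxd3fl/fl, with overlapping groups. Rpl3l had a difference of -0.85, Rpl7a and Rps25 of -0.63 each and Rpl35 of -0.62. Across the 75 genes that are no paralogs, the effects in SL and in 2i, from separate libraries, had a Pearson correlation of -0.008.

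Levels were then set side by side over all 6 groups, on a scale common to the 12 libraries. Levels across tables are a description, since the authors may have normalised each table apart, and no test was made. For 71 of the 75 genes that are no paralogs, both 2i Foxd3fl/fl libraries lay above the other 10 libraries, and for 72 that group had the highest mean. The lowest mean fell in the group labelled 2i Foxd3-/- for 34 genes, in tetON Foxd3 for 24, in WT for 13 and in SL Foxd3-/- for 4. Taken against each gene's mean log2 level, the median of the 75 genes was -0.10 and -0.20 in the libraries labelled 2i Foxd3-/- and 0.44 and 0.40 in 2i Foxd3fl/fl. In the other 8 libraries it lay between -0.19 (WT replicate 1) and 0.12 (SL Foxd3fl/fl replicate 1). The ranges of the labelled 2i Foxd3-/-, tetON Foxd3 and WT libraries overlapped, as did those of SL Foxd3-/- and SL Foxd3fl/fl. Relative to SL Foxd3fl/fl, 2i Foxd3fl/fl was higher for all 75 genes, and 72 of them also had a larger share of the authors' mean reads. One gene shows the limit of such a reading: Rpl31 was 1.60 log2 higher in 2i Foxd3fl/fl than in SL Foxd3fl/fl by FPKM, and 0.32 by its share of mean reads.

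Between the groups given doxycycline and the Foxd3fl/fl;Cre-ER line in SL, the levels of these genes differed by chromosome. The groups compared also differ in feeders, treatment and deposited table, which cannot be told apart from the cell line. All 7 genes on chromosome 11 (Rpl19, Rpl23, Rpl23a, Rpl26, Rpl27, Rpl38 and Rps27a) were lower in WT than in SL Foxd3fl/fl, by -0.65 to -0.42 log2, and the 1061 other expressed genes of chromosome 11 had a median of -0.42. By their share of the authors' mean reads, the 7 genes had a median of -0.46. The 71 autosomal ribosomal protein genes that are no paralogs had a median of -0.18, and all 12188 autosomal genes a median of -0.01. The X-linked genes stood on the other side, with Rps4x at 0.55, Rpl10 at 0.52, Rpl39 at 0.52 and Rpl36a at 0.10 in WT relative to SL Foxd3fl/fl; the 498 other X-linked genes had a median of 0.67. The same order was seen between tetON Foxd3 and SL Foxd3-/-, which are other libraries: the 7 genes of chromosome 11 ran from -0.50 to -0.38, beside -0.45 for the other genes there, and 3 of the 4 X-linked genes lay at 0.49 or above, beside 0.49. Within the 2i table no such order by chromosome was seen, with medians of the other genes per chromosome between -0.06 (X) and 0.08 (chromosome 12).

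**Figure D5:**
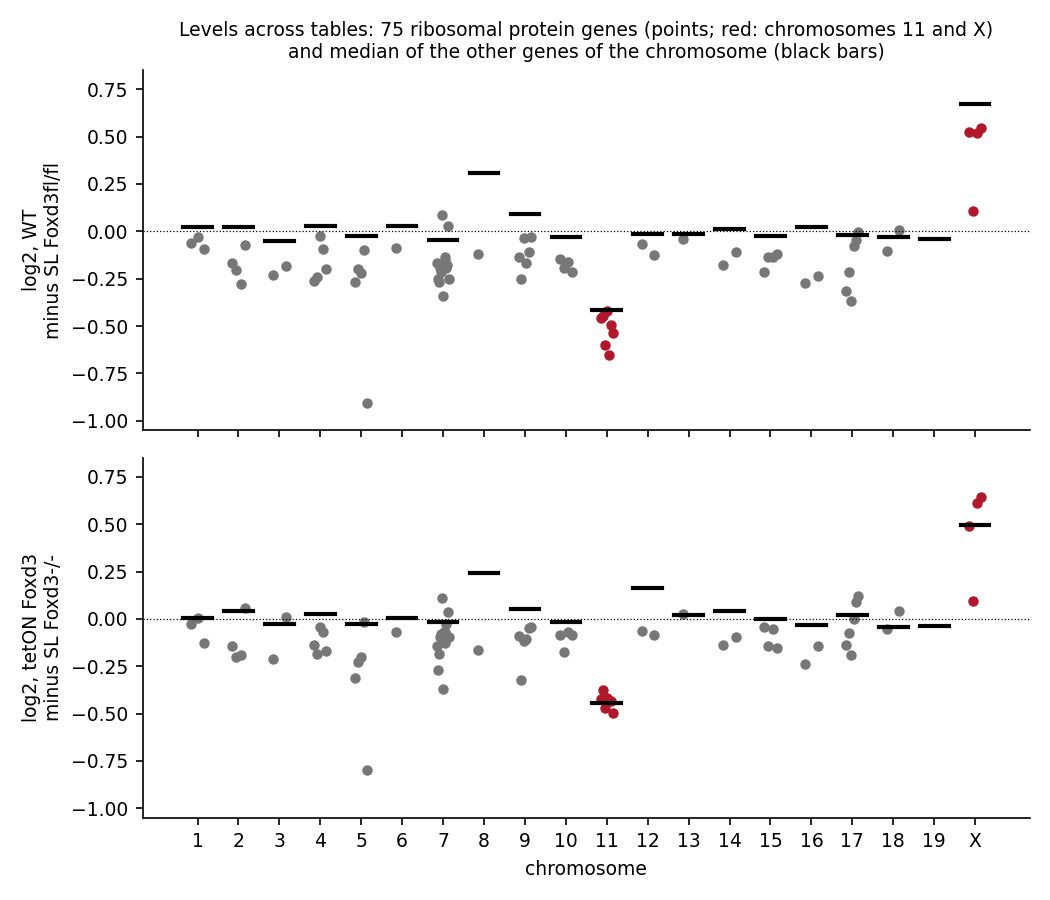
Log2 difference in level across tables (vertical axes) of the 75 ribosomal protein genes that are no paralogs (points) by chromosome, for WT minus SL Foxd3fl/fl (top) and tetON Foxd3 minus SL Foxd3-/- (bottom), with the median of the other genes of each chromosome as a bar. Most of the genes on chromosome 11 and on X (red) lie away from the bulk of the rest, while Rpl36a on X lies near the autosomal genes in both panels. The point near -0.9 on chromosome 5 in the top panel is Rplp0.

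Rplp0, a common reference gene in quantitative PCR, differed most of the 75 genes between WT and SL Foxd3fl/fl, with the same limits on the comparison. It was at 626 and 629 scaled FPKM in tetON Foxd3 and at 587 and 623 in WT, against 1145 and 1124 in SL Foxd3fl/fl. By its share of the authors' mean reads it was 1.02 log2 lower in WT than in SL Foxd3fl/fl (-1.02), close to the -0.91 found by FPKM. Rplp0 lies on chromosome 5, whose other genes had a median of -0.03. Rpl10l was at 48.8 and 49.6 in tetON Foxd3 and at 98.7 and 101 in WT, while the 8 libraries of the Foxd3fl/fl;Cre-ER line ran from 6.6 to 12.3.

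Of the 14 rows of copies, 13 were tested in 2i and all 13 fell, with a median of -0.60 and a range from -1.09 to -0.24. None passed the limma test in SL, where 12 of 14 differences were negative, or in tetON Foxd3, where 7 of 14 were, and 0 passed an unadjusted p of 0.05 in either. These include Rpl36al, an intronless copy of Rpl36a (-0.31 in 2i), and Rps27rt, a copy of Rps27 (-0.60). Reads that match a parent and its copy equally cannot be assigned with certainty, and for some copies the FPKM has almost no reads behind it in the authors' deposited table: Rpl27-ps3 had 74.7 FPKM in SL Foxd3fl/fl with 0 mean reads. Over the copies the median was 2.49 mean reads per FPKM, against 30.9 for the gene rows.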

How the data were processed

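The authors deposited, per the file headers, 3 tables with FPKM per library, mean reads per group on the authors' own scaling (a signal, not a raw count), a signed fold (ratio) between groups and a p-value. The submitters' processing notes name FastQC, TopHat2, SAMtools, Cufflinks, DESeq2, GRCm38 and mm10, with versions not given in the sources used here; read depth per library is unknown. The authors' mean reads summed to 24278900 in labelled 2i Foxd3-/- and 27062500 in 2i Foxd3fl/fl. In the SL, tetON Foxd3 and WT groups they summed to between 52789800 and 54096100, a further limit on comparisons between the 2i groups and the others. Members and lists were chosen with earlier results of these data known. FPKM were scaled within a table by median of ratios, and genes with a group mean of at least 1 were tested as log2(scaled FPKM + 1) with limma 3.58.1 (R 4.3.3; trend, 2 residual degrees of freedom; 4 in the 8-library fit of both media), adjusted by Benjamini and Hochberg over all genes tested at 0.05. Such fold changes understate those of low genes. Genes were named by role and by the largest differences in each comparison. The fit was tested on simulated data with the spread of each comparison. Of 100 genes changed by 0.5 log2 it called 93 in 2i, 29 in SL and 19 in tetON Foxd3 minus WT. Of 100 changed by 1 log2 it called 100, 98 and 97. Among the unchanged genes of the same simulations it called 18, 9 and 16. Single genes with a change of 0.5 log2 would thus mostly be missed outside 2i. The simulated noise was independent between libraries, and both sets of 100 genes were changed at once, which eases the adjusted threshold. With fewer genes changed, those of 1 log2 can be missed too. In the SL data 1 of 12024 genes was called, and Foxd3 at -1.06 was not (adjusted p = 0.124, limma). An exact permutation of 2 against 2 cannot go below p = 0.333, so shares were not tested. Genes were matched by identifier to GENCODE M21, and starts by symbol to RefSeq (GRCm38.p6). Alternatives covered scaling, pseudocount, filter, member rule, replicate block and each library left out. A few genes are not reported by name here.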

Additional observations from a re-analysis of the deposited data

Results flagged for a closer look

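The difference between the deletion effects in the 2 media was tested directly, by the interaction in the joint limma fit, and passed for 74 ribosomal protein genes of 79, all lower in 2i, where Foxd3 RNA did not bear out the label Foxd3-/-. The 5 genes with the largest such differences were Rpl27a (-0.91, adjusted p = 0.00926), Rpl3l (-0.85, adjusted p = 0.0145), Rpl7a (-0.63, adjusted p = 0.0110), Rps25 (-0.63, adjusted p = 0.0146) and Rpl35 (-0.62, adjusted p = 0.0147), all on the log2 scale as 2i effect minus SL effect by limma. Without the library labelled 2i Foxd3-/- replicate 2, 0 of the 79 passed.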

How the results depend on the processing

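In 2i, the count of genes called lower was 77 to 78 and the median -0.61 to -0.52 when each library was left out, and the median was -0.36 with FPKM as deposited and -0.30 with equal summed FPKM. Of genes called higher there was 1 (not 0) with FPKM as deposited, with equal summed FPKM and with further symbols as members, and 0 to 1 with libraries left out. With single-symbol rows only, which here include some rows of copies, 39 rows were called lower in 2i and 35 in the difference between media. That difference gave 24 genes with FPKM as deposited, 39 with no filter and 0 to 78 with libraries left out, with a median of -0.31 with FPKM as deposited, -0.29 with equal summed FPKM and -0.60 to -0.44 with libraries left out. In SL the counts stayed at 0 with libraries left out, with a median of -0.14 to 0.01. In tetON Foxd3 minus WT, 0 genes were called lower with no filter and 0 to 1 with libraries left out, and the median ran from -0.062 (without WT replicate 1) to 0.037 (without WT replicate 2). Same-numbered replicates share only a number, with deviations correlated at 0.61 in SL, -0.05 in 2i and 0.60 in tetON Foxd3 and WT; with the replicate block, 2 genes were called higher in SL (Rpl10l and Rpl39l) and 2 lower in tetON Foxd3 (the same pair of paralogs). Without joined rows or failed estimates in the denominator, the mean share was 14.7% in labelled 2i Foxd3-/- and 18.4% in 2i Foxd3fl/fl, 15.1% in SL Foxd3-/- and 15.5% in SL Foxd3fl/fl, and 14.6% in tetON Foxd3 and 14.5% in WT. Foxd3 in 2i was reversed in the authors' deposited table, with a log2 fold of 0.77. The cause of these shifts was not tested. Under alternatives, 182 summary values stayed close to the reported value, and 31 moved. A count was taken as close within a set ratio of the reported count, and a median within the spread of replicates. With 2 libraries a group, the 95% intervals of the genes that are no paralogs together ran from -0.41 to 0.29 log2 in SL and from -0.34 to 0.34 in tetON Foxd3 minus WT.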
